A study of Mus musculus with 12 samples.

Results

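The genes described here are 31 mouse genes of cholesterol and fatty acid synthesis and of the transcription factors that control them, the sterol regulatory element-binding proteins (SREBPs). They were chosen by name, as 18 enzymes of the sterol pathway, 8 enzymes of fatty acid synthesis and 5 genes called regulators here, out of 43432 gene identifiers in the count tables. These 5 are Srebf1 and Srebf2, which encode SREBPs, Scap, Insig1, and Stard4, a sterol carrier. Earlier results of these data were known at that choice, so the shares of members called are descriptions and not independent tests. RNA was sequenced from BV2 cells, an immortalized mouse microglial line, in 6 groups of 2 libraries. The compound groups received 10 or 30 µM 6-shogaol, or 10 or 30 µM 6-gingerol, and 1 h later lipopolysaccharide (LPS, bacterial endotoxin) at 100 ng/mL. The LPS group received LPS alone, and the untreated group received neither. All groups shared the cell line and a change to serum-free medium 24 h after seeding, which lasted at least 4 h before treatment. 6-Gingerol is a pungent phenol of fresh ginger, and 6-shogaol is its dehydration product, with an unsaturated ketone in place of the hydroxy ketone. The time from LPS to harvest, the vehicle and whether the 2 libraries of a group came from separate cultures are not given in the sources used here, and no group received a compound without LPS. The p-values therefore measure only the spread between these libraries.

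Cholesterol and fatty acids are both built from cytosolic acetyl-CoA, by 2 arms of enzymes whose genes SREBPs activate. When sterols in the endoplasmic reticulum are plentiful, SCAP, which escorts SREBPs to the Golgi for cleavage, is held back by INSIG proteins. When sterols are scarce, cleaved SREBPs enter the nucleus and activate genes of both arms, SREBP2 mainly those of the sterol arm and SREBP1c mainly those of the fatty acid arm. In macrophages and microglia both arms supply membranes, and sterol intermediates and desaturated fatty acids also feed inflammatory signalling. RNA levels measure neither cleavage of SREBPs nor lipid synthesis.

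Of the 31 genes, 24 had a promoter window in the RefSeq table for GRCm38.p6, which runs from 250 bases before the transcription start to 50 after it. The motif CCAAT (bound by NF-Y, a partner of SREBPs), read on both strands, occurred in 19 of these 24 windows, which is 79.2%, against 41.1% of the windows of 27025 genes. It was present in 14 of 15 sterol arm windows, 2 of 5 fatty acid arm windows and 3 of 4 regulator windows. The GC box GGGCGG, also read on both strands, was in 20 of the 24 windows, which is 83.3%, against 38.2% of all windows. The sterol regulatory element searched as TCACNCCAC was in 1 of the 24 windows, or 4.17%, against 1.44% of all windows. The E-box CACGTG was in 5, or 20.8%, against 8.09%. The 27025 genes were not limited to those measured in these cells, whose shares were not computed. An excess over measured genes is therefore not shown. The 6 windows below are shown because they run from no CCAAT match to the most of any member, and belong to members with different responses. Capitals mark CCAAT, its reverse complement ATTGG and the TCACNCCAC match, and all are written 5′ to 3′ along the gene. Acat2 lies at chr17:12960676-12960975 on the minus strand, and Hmgcs1 at chr13:119690101-119690400 on the plus strand. Mvk lies at chr5:114444019-114444318 on the plus strand, and Nsdhl at chrX:72918271-72918570 on the plus strand. Fasn lies at chr11:120824498-120824797 on the minus strand, and Insig1 at chr5:28071162-28071461 on the plus strand.
Acat2: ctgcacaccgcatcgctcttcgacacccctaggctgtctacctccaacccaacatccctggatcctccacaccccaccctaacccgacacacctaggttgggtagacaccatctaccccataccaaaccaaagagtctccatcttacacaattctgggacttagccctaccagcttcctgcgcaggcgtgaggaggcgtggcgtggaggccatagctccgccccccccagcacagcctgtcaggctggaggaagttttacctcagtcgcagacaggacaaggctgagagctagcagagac
Hmgcs1: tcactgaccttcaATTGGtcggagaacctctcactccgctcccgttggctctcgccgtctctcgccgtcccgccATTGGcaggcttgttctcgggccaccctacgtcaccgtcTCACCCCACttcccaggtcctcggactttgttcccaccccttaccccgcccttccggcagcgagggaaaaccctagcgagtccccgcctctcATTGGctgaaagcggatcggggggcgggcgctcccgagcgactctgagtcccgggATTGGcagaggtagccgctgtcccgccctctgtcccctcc
Mvk: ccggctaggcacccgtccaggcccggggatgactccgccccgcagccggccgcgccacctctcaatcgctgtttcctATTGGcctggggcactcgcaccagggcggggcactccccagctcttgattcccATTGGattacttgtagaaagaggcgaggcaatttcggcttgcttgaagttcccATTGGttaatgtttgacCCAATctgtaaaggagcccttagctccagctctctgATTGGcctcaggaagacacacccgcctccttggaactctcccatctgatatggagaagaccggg
Nsdhl: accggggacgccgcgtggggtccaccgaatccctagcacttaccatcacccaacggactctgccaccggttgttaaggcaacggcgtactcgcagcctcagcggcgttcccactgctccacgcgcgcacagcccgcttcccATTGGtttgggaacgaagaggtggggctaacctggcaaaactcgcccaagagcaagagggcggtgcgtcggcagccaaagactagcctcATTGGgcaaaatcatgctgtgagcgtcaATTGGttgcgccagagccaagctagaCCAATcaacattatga
Fasn: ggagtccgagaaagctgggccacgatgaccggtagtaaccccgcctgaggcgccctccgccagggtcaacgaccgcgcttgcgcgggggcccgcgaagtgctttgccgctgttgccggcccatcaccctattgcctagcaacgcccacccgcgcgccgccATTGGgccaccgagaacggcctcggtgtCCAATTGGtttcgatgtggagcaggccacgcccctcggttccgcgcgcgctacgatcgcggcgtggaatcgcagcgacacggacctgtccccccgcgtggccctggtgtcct
Insig1: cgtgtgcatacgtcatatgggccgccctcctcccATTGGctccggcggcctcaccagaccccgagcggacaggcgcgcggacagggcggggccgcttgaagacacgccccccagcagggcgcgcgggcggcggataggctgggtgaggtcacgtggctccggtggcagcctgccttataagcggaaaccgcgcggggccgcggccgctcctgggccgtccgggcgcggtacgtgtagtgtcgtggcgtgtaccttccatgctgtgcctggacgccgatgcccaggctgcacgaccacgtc
Mvk had 5 matches to CCAAT, Hmgcs1 and Nsdhl 4 each, Fasn 3 and Insig1 1. The Acat2 window had no match. The TCACNCCAC match of Hmgcs1 began 137 bases before the start, recorded as position -137. A match is a run of letters and not a measured binding site.

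The libraries held 16534960 to 21179867 expected counts (reads assigned to genes by RSEM), and 15329 to 15979 genes had at least 1 count. All 12 microglial markers checked were measured, and their summed level was 2160 to 2390 CPM (counts scaled to the library total) in every library, with Cx3cr1 and P2ry12, markers of resting microglia, each near or under 1 CPM. The summed markers of astrocytes, neurons, oligodendrocytes, fibroblasts with endothelium, and hepatocytes did not exceed 3.19 CPM for any list in any library. Totals were adjusted by TMM, which corrects for library composition. Of 12705 genes abundant enough to test, 29 were members. Calls were made by the edgeR quasi-likelihood test at an adjusted p under 0.05 (Benjamini-Hochberg, over all genes tested), and every rise, fall or change is given on the log2 scale, where 1 is a doubling, with its standard error (SE). Because the RNA is from whole cultures, fewer cells expressing a gene and less RNA per cell cannot be told apart. With 2 libraries a group, the values of an unchanged gene often do not overlap between groups. The share of all genes tested without overlap was not counted, so non-overlap is given as a description only.

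Per unit of transcript length, the members spanned a wide range of levels. Scd2, a stearoyl-CoA desaturase of the fatty acid arm and the form abundant in mouse brain, had 213, 257 and 482 TPM (a level scaled to transcript length) as the lowest, median and highest of the 12 libraries. Fdps, which makes farnesyl diphosphate in the sterol arm, had 191, 255 and 285 TPM, so these 2 ranges overlapped. Msmo1, which removes methyl groups from sterols, followed with 63.4, 75.2 and 109 TPM, below the range of both. At the low end of the tested members, Elovl6, which lengthens palmitate, had 1.22, 1.57 and 3.19 TPM. Hsd17b7, a ketosteroid reductase of the sterol arm, had 3.08, 3.88 and 7.12 TPM, and its lowest value lay just below the highest of Elovl6. The 2 members not tested were Scd1 and Fads2. Scd1, the stearoyl-CoA desaturase best known from liver, had 0 counts in 7 libraries and at most 2 in the other 5. Fads2, a desaturase of polyunsaturated fatty acids, had 0 counts in all 12 libraries, where 3 counts, the limit that a count of 0 allows, correspond to 0.142 to 0.181 CPM.

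**Figure D1:**
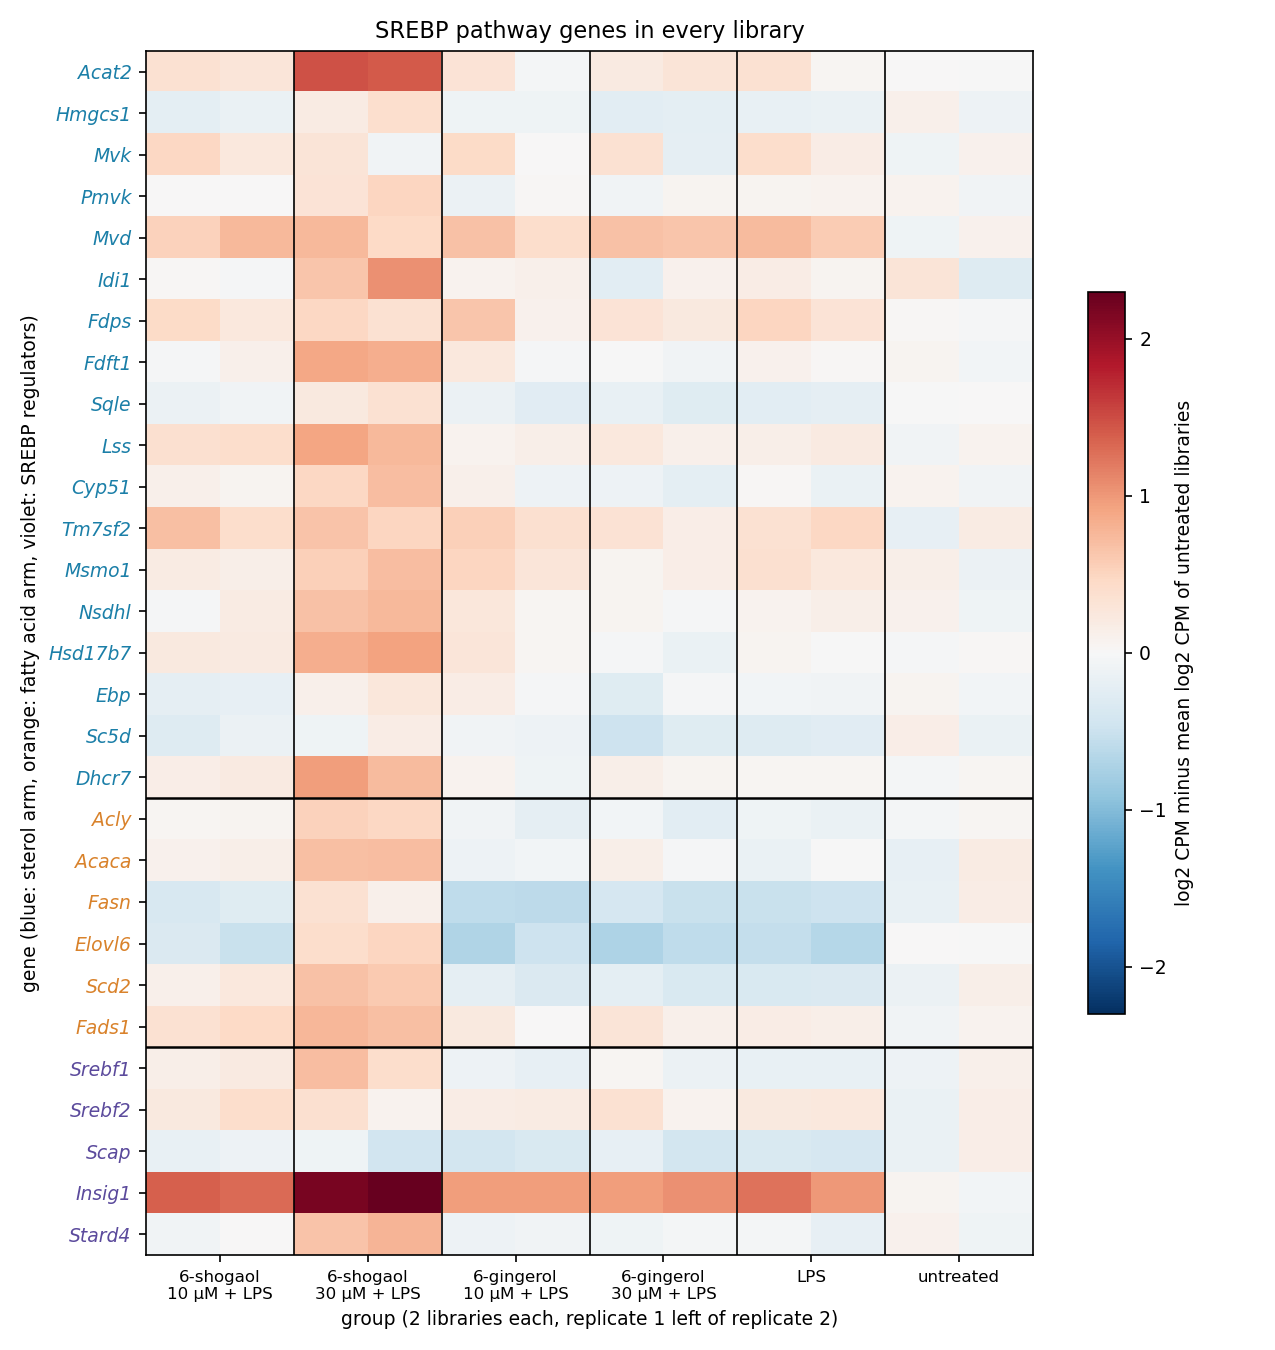
Log2 CPM of the 29 tested members (rows, grouped by arm in pathway order) in each of the 12 libraries (columns), minus the mean log2 CPM of the 2 untreated libraries. Both libraries of 30 µM 6-shogaol with LPS stand out in most rows, with an arm median of 0.60 in each for the sterol arm and of 0.60 and 0.56 for the fatty acid arm, while Insig1 is raised in every LPS-treated library.

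The first comparison asked what 30 µM 6-shogaol with LPS did to these genes relative to LPS alone. Of the 29 tested members 21 rose and none fell, whereas 12.6% of all genes tested were called higher and 12.8% lower. In the sterol arm 12 of 18 rose, in the fatty acid arm all 6 that could be tested rose, and of the regulators 3 of 5 rose. The median log2 fold change was 0.48 in the sterol arm, 0.75 in the fatty acid arm, 0.73 among the regulators and 0.00 over all genes tested. The 2 arms overlapped in range: -0.18 to 1.22 in the sterol arm and 0.59 to 1.07 in the fatty acid arm. The sterol count was 13 in fits of the 2 groups alone, with fragment length or without the untreated libraries. It was 11 with no count filter and 9 in limma on the authors' deposited table. In some refits with 1 library left out the count fell, but these leave a group of 1 library. The share of all genes called in the alternatives is not given here. Pmvk, Msmo1, Hmgcs1 and Idi1 were the sterol genes that lost their call in 1 or more alternatives. The fatty acid count was 6 with any single library left out and 5 in the authors' deposited table.

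The sterol arm begins with the joining of acetyl-CoA units. Acat2, the cytosolic thiolase that makes acetoacetyl-CoA, had 80.3 and 77.9 CPM with 30 µM 6-shogaol and LPS, against 37.5 and 30.4 CPM with LPS alone. Its log2 fold change of 1.22 ± 0.13 (SE, with adjusted p = 7.1e-06), or 2.34-fold, was the largest among the members in this comparison. Its counts were not whole numbers in 11 of 12 libraries, as RSEM gives where reads also match other genes. Hmgcs1, the synthase of the next step, whose promoter holds the TCACNCCAC match, had 94.9 and 109 CPM against 73.9 and 74.9 CPM with LPS, a rise of 0.45 ± 0.10 (SE, with adjusted p = 0.00418). For both genes the groups did not overlap.

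The enzymes that turn mevalonate into isoprenoid units did not all move. Mvk, which adds the first phosphate to mevalonate, had 20.9 and 16.2 CPM with 30 µM 6-shogaol and LPS, against 22.8 and 19.3 CPM with LPS, and the groups overlapped. Its log2 fold change was -0.18 ± 0.19 (SE, with adjusted p = 0.544), and its promoter had the most CCAAT matches of any member with a window. Pmvk, which adds the second phosphate, rose by 0.34 ± 0.11 (SE, with adjusted p = 0.0356), a call lost in 5 alternatives. Mvd, the decarboxylase that follows, had 81.8 and 67.0 CPM against 80.7 and 73.7 CPM with LPS, with overlapping groups and a log2 fold change of -0.05 ± 0.13 (SE, with adjusted p = 0.803). Idi1, the isomerase of isopentenyl diphosphate, had 90.6 and 121 CPM against 65.6 and 61.0 CPM with LPS. It rose by 0.74 ± 0.17 (SE, with adjusted p = 0.00535), but its 2 libraries with 6-shogaol lay far apart, and without replicate 2 of that group the change was 0.52 and no longer called, nor was it without replicate 2 of the LPS group. Fdps, the next enzyme, had 272 and 247 CPM against 274 and 242 CPM with LPS, which overlapped, and its log2 fold change of 0.00 had a 95% interval of -0.30 to 0.31. Idi1 and Fdps both had counts that were not whole in all 12 libraries.

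From squalene onward, 8 of the 11 enzymes of the list rose. Fdft1, which makes squalene, had 75.5 and 73.2 CPM with 30 µM 6-shogaol and LPS against 44.0 and 41.7 CPM with LPS, a rise of 0.79 ± 0.11 (SE, with adjusted p = 0.00011). Fdft1 overlaps Ctsb, a far more abundant gene on the other strand, over 774 bases. The strand setting of the authors' counting is not given in the sources used here, and the part of this overlap in the result was not tested. The counts of Fdft1 were not whole numbers in any of the 12 libraries. Sqle, which oxidizes squalene, had 146 and 158 CPM against 105 and 107 CPM with LPS and rose by 0.52 ± 0.09 (SE, with adjusted p = 0.000696). Lss, which closes the sterol rings, rose by 0.66 ± 0.11 (SE, with adjusted p = 0.000382). The demethylating steps moved in the same direction. Cyp51, the lanosterol demethylase, had 83.1 and 97.1 CPM against 60.6 and 53.8 CPM with LPS, a rise of 0.66 ± 0.12 (SE, with adjusted p = 0.000764). It overlaps Akap9 on the other strand over 166 bases, and the part of this overlap was not tested either. Unlike those of Fdft1, its counts were whole numbers in all 12 libraries. Msmo1 rose by 0.33 ± 0.11 (SE, with adjusted p = 0.0413), a call lost whichever 1 of the 4 libraries compared was left out, and Nsdhl, the dehydrogenase that works with it, by 0.60 ± 0.12 (SE, with adjusted p = 0.00186). Hsd17b7, the reductase of the same complex, had 24.2 and 25.6 CPM against 14.1 and 13.4 CPM with LPS, a rise of 0.86 ± 0.12 (SE, with adjusted p = 0.000113). Dhcr7, the reductase that makes cholesterol from its dehydro precursor, had 61.1 and 52.0 CPM against 32.7 and 32.5 CPM with LPS, a rise of 0.79 ± 0.11 (SE, with adjusted p = 0.000107).

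The remaining sterol enzymes did not pass the test. Tm7sf2, a sterol reductase that shares 532 bases with Vps51 on its own strand, had a log2 fold change of 0.16 ± 0.17 (SE, with adjusted p = 0.545). Ebp, a sterol isomerase, had 0.26 ± 0.13 (SE, with adjusted p = 0.162) and Sc5d, a sterol desaturase, 0.32 ± 0.12 (SE, with adjusted p = 0.0732). All 3 were higher in both 6-shogaol libraries than in both LPS libraries, a separation that with 2 libraries a group often arises without a change. A rise is therefore not shown for them, and a p that misses the threshold does not show that they were alike. Sc5d was called in fits of the 2 groups alone (0.31), with fragment length (0.37) and without the untreated libraries (0.32). The share of all genes called in these fits is not given here.

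All 6 tested genes of the fatty acid arm rose, and Scd1 and Fads2 could not be tested. Acly, which supplies cytosolic acetyl-CoA from citrate to both arms, had 159 and 154 CPM with 30 µM 6-shogaol and LPS, against 104 and 99.8 CPM with LPS, a rise of 0.62 ± 0.09 (SE, with adjusted p = 0.000233). Acaca, the carboxylase that makes malonyl-CoA, had 69.4 and 70.9 CPM against 38.7 and 43.1 CPM with LPS. It rose by 0.78 ± 0.12 (SE, with adjusted p = 0.000299), but limma on the authors' deposited table gave 0.41 with an adjusted p of 0.064. Fasn, the synthase of palmitate, had 123 and 105 CPM against 67.9 and 69.7 CPM with LPS, a rise of 0.72 ± 0.12 (SE, with adjusted p = 0.000368).

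The enzymes that modify palmitate included the largest changes of this arm. Elovl6 had 16.4 and 17.5 CPM with 30 µM 6-shogaol and LPS, against 8.41 and 7.81 CPM with LPS, a rise of 1.07 ± 0.14 (SE, with adjusted p = 5.41e-05) or 2.10-fold. Scd2 had 2380 and 2269 CPM against 1162 and 1180 CPM with LPS, a rise of 0.99 ± 0.12 (SE, with adjusted p = 3.76e-05) in the most abundant member of the arm. Fads1, a desaturase in the making of arachidonate and other polyunsaturated fatty acids, had 242 and 231 CPM against 159 and 155 CPM with LPS, a rise of 0.59 ± 0.10 (SE, with adjusted p = 0.000811). In none of the 6 did a library with 6-shogaol overlap one with LPS, but the share of all genes without overlap was not counted.

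Among the regulators Insig1, Stard4 and Srebf1 rose, and Srebf2 and Scap did not pass the test. Insig1, which retains SCAP in the endoplasmic reticulum, had 266 and 288 CPM with 30 µM 6-shogaol and LPS, against 139 and 117 CPM with LPS, a rise of 1.11 ± 0.10 (SE, with adjusted p = 1.97e-06) or 2.16-fold. Stard4, a carrier of sterols through the cytosol, had 50.4 and 55.2 CPM against 31 and 28.04 CPM with LPS, a rise of 0.84 ± 0.11 (SE, with adjusted p = 5.25e-05). Srebf1, which encodes SREBP1a and SREBP1c, had 101 and 82.0 CPM against 55.1 and 55.2 CPM with LPS, a rise of 0.73 ± 0.12 (SE, with adjusted p = 0.000395). The gene-level counts do not separate its isoforms. It overlaps Rai1 on the other strand over 109 bases, whose part was not tested, and its counts were whole numbers in all 12 libraries. Srebf2, which encodes SREBP2, had 214 and 176 CPM against 194 and 196 CPM with LPS, overlapping groups and a log2 fold change of 0.00 with a 95% interval of -0.27 to 0.27. Scap had 36.3 and 28.7 CPM against 30.3 and 29.7 CPM with LPS, also overlapping, and a log2 fold change of 0.11 ± 0.13 (SE, with adjusted p = 0.585). The counts of Scap were not whole numbers in any of the 12 libraries.

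**Figure D2:**
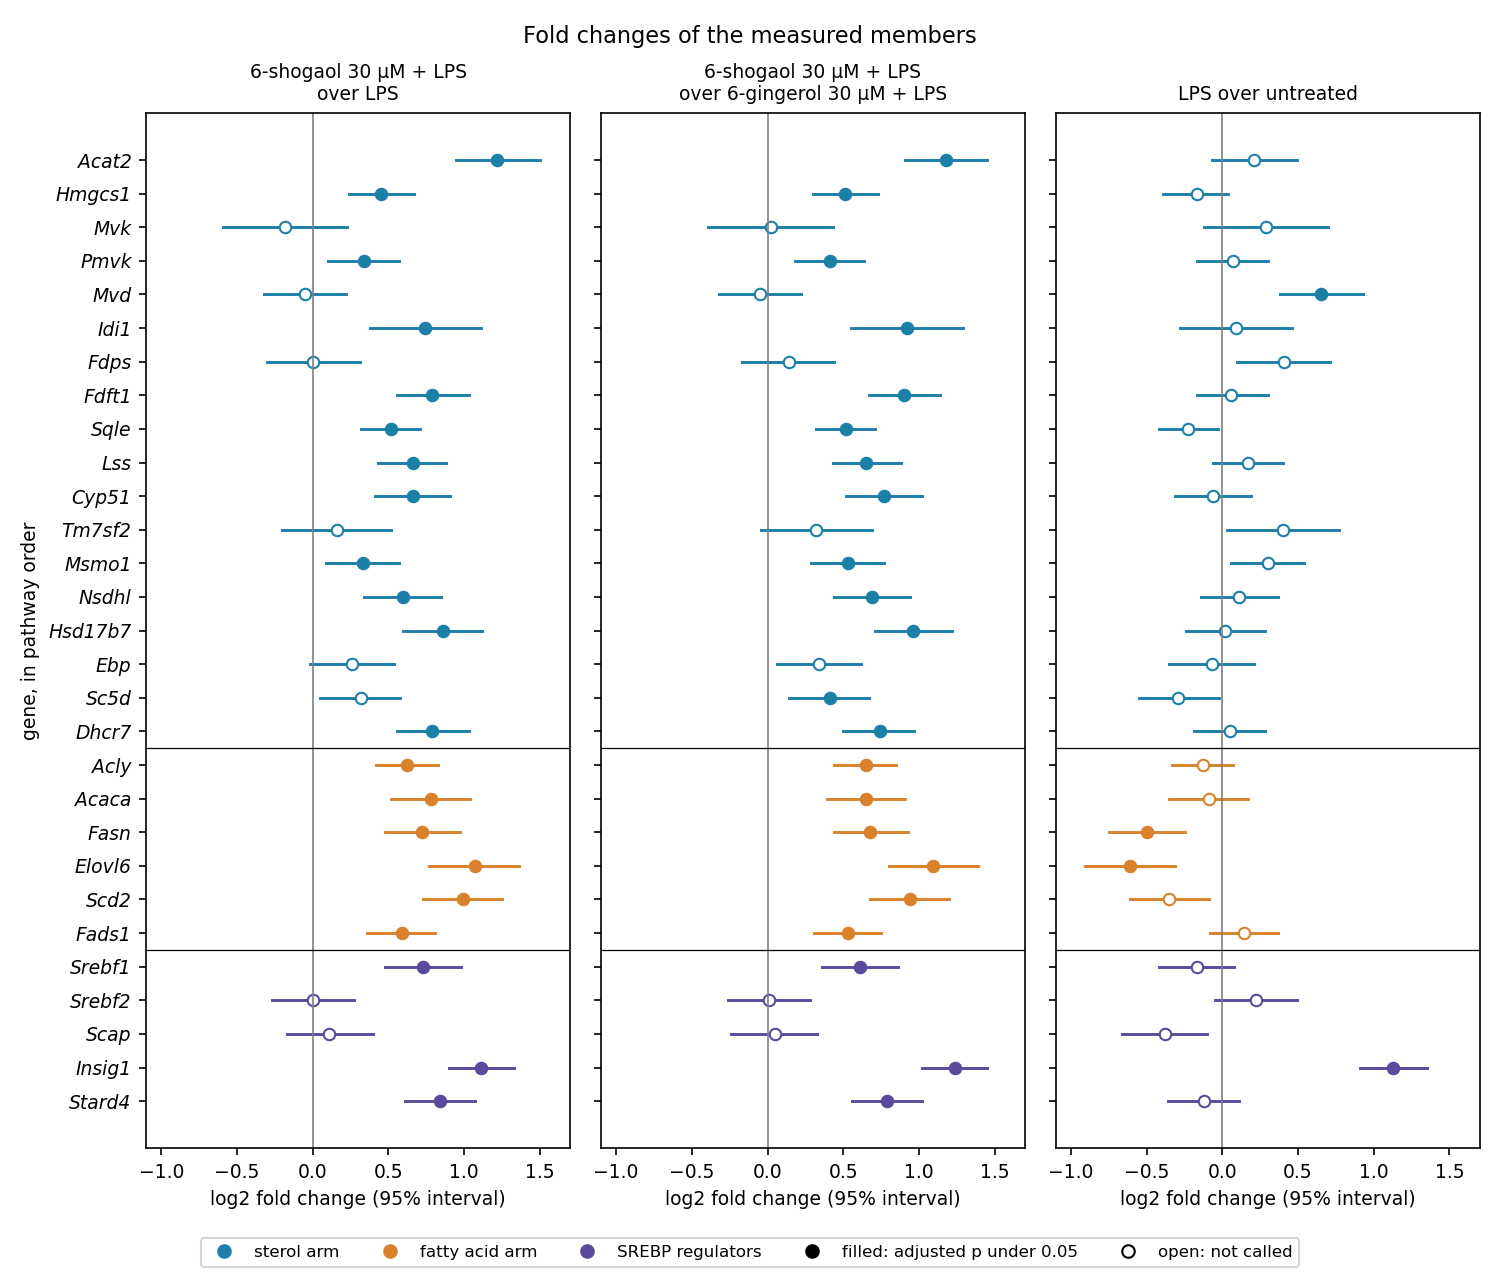
Log2 fold changes with 95% intervals of the 29 tested members in pathway order, for 30 µM 6-shogaol with LPS over LPS (left), over 30 µM 6-gingerol with LPS (middle), and for LPS over untreated (right); filled points had an adjusted p under 0.05. All 6 fatty acid genes are filled in the left and middle panels, and Mvk, Mvd, Fdps, Srebf2 and Scap lie near 0 there.

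At 10 µM, 6-shogaol with LPS gave no call among the members relative to LPS alone, where 0.638% of all genes tested were called in either direction, 0.063% higher and 0.575% lower. Without adjustment 4 of the 29 members had p under 0.05, against 1378 of the 12705 genes tested. The 2 arms differed in their medians: 0.02 in the sterol arm, with 9 genes above 0 and 9 below, and 0.19 in the fatty acid arm, with all 6 above 0. Of all genes tested, 6327 lay above 0 and 6376 below, and a difference between the arms was not tested. Scd2 had the largest value, with 1620 and 1756 CPM with 10 µM 6-shogaol and LPS against 1162 and 1180 CPM with LPS. The groups did not overlap, and its log2 fold change was 0.53 ± 0.12 (SE, with adjusted p = 0.078); DESeq2, which called 1 member, called Scd2, as did edgeR without the untreated libraries. Srebf1 had 68.2 and 71.7 CPM against 55.1 and 55.2 CPM with LPS, a log2 fold change of 0.34 ± 0.12 (SE, with adjusted p = 0.31). Fads1 had 182 and 196 CPM against 159 and 155 CPM with LPS, a log2 fold change of 0.26 ± 0.10 (SE, with adjusted p = 0.379). Scap, the fourth largest, had 34.5 and 35.7 CPM against 30.3 and 29.7 CPM with LPS, and a log2 fold change of 0.23 ± 0.13 (SE, with adjusted p = 0.548). A fit of these 2 groups alone called 3 members, Scd2, Srebf1 and Fads1. The share of all genes called in these other fits is not given here, so their calls do not show a difference between the arms.

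With 6-gingerol no member was called relative to LPS at either dose, and 0.0% of all genes tested were called in either direction. No member had an unadjusted p under 0.05 at either dose, against 243 of the 12705 genes tested at 10 µM and 189 at 30 µM. DESeq2 and limma-voom made no call among the members either. With 10 µM 6-gingerol and LPS the members' log2 fold changes over LPS ran from -0.17 for Insig1 to 0.18 for Sc5d, with 95% intervals of all members within -0.45 to 0.44. Sc5d had 69.0 and 67.4 CPM with 10 µM 6-gingerol and LPS, against 59.5 and 61.1 CPM with LPS, and Ebp 16.7 and 14.7 CPM against 14.3 and 14.0 CPM with LPS. Hsd17b7 had 16.3 and 14.0 CPM with 10 µM 6-gingerol and LPS, against 14.1 and 13.4 CPM with LPS. In Sc5d and Ebp both 6-gingerol libraries lay above both LPS libraries, and in Hsd17b7 they did not. With 30 µM they ran from -0.20 to 0.13, within intervals of -0.61 to 0.39. Msmo1 and Mvk, at -0.20 each, were the lowest. Msmo1 had 117 and 125 CPM with 30 µM 6-gingerol and LPS, against 145 and 134 CPM with LPS, without overlap, and Mvk 21.7 and 14.8 CPM against 22.8 and 19.3 CPM with LPS, with overlap. Of the sterol genes 15 of 18 lay below 0, of the fatty acid genes 2 of 6, and of all 12705 genes tested 6317. The median was -0.09 in the sterol arm and 0.05 in the fatty acid arm. Both are smaller in size than 0.26, the median half-width of a member's 95% interval, and a difference between the arms was not tested. Insig1 had 114 and 121 CPM with 30 µM 6-gingerol and LPS, against 139 and 117 CPM with LPS, and the groups overlapped.

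**Figure D3:**
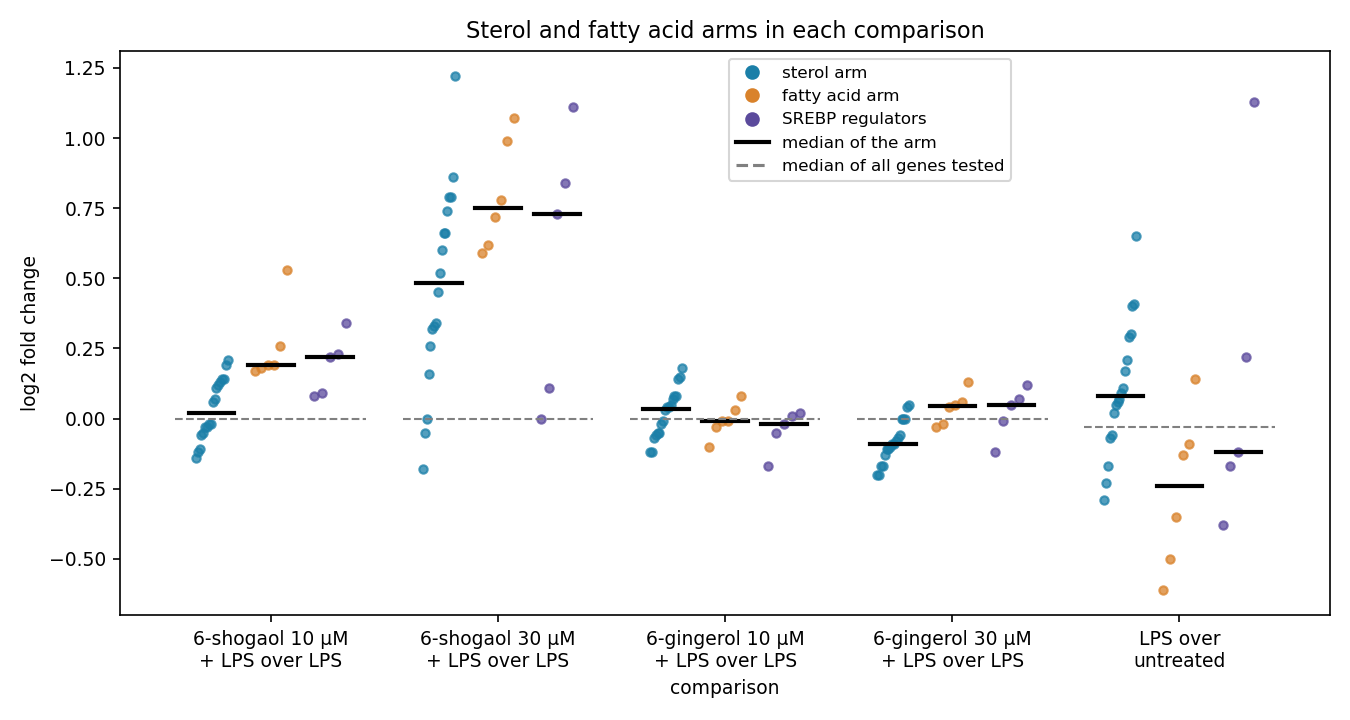
Log2 fold change of each tested member (points) in 5 comparisons, by arm, with the median of the arm (black bar) and of all genes tested (dashed line). With 30 µM 6-shogaol the medians of the sterol arm, the fatty acid arm and the regulators are 0.48, 0.75 and 0.73, and with LPS over untreated they are 0.08, -0.24 and -0.12.

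The compounds were then set against each other at matched doses, in 2 comparisons; the compounds differ in structure by the dehydrated, unsaturated ketone of 6-shogaol. At 30 µM, 22 members were higher with 6-shogaol and LPS than with 6-gingerol and LPS and none was lower, whereas 12.5% of all genes tested were called higher and 12.4% lower. The sterol arm had 13 of 18 higher, with a median log2 fold change of 0.52, and the fatty acid arm 6 of 6, with a median of 0.67. This comparison shares the 6-shogaol libraries with the one against LPS, and the values stand side by side here. Insig1 had 266 and 288 CPM with 6-shogaol against 114 and 121 CPM with 6-gingerol, a log2 fold change of 1.24 ± 0.10 (SE, with adjusted p = 8.69e-07). Acat2 had 80.3 and 77.9 CPM with 6-shogaol against 33.6 and 36.0 CPM with 6-gingerol, a log2 fold change of 1.18 ± 0.13 (SE, with adjusted p = 1.02e-05). Elovl6 had 16.4 and 17.5 CPM with 6-shogaol against 7.61 and 8.30 CPM with 6-gingerol, a log2 fold change of 1.09 ± 0.14 (SE, with adjusted p = 4.73e-05). In these 3 genes every library with 6-shogaol lay above both libraries with 6-gingerol, again a description only. Hsd17b7 had 24.2 and 25.6 CPM with 6-shogaol against 13.3 and 12.2 CPM with 6-gingerol, a log2 fold change of 0.96. Scd2 had 2380 and 2269 CPM with 6-shogaol against 1266 and 1162 CPM with 6-gingerol, a log2 fold change of 0.94. Idi1 had 90.6 and 121 CPM with 6-shogaol against 49.3 and 62.8 CPM with 6-gingerol, a log2 fold change of 0.92. These 3 did not overlap between the compounds either, nor did Fdft1, with 75.5 and 73.2 CPM with 6-shogaol against 40.5 and 38.9 CPM with 6-gingerol and a log2 fold change of 0.90. The other called members ran from 0.41 for Pmvk to 0.79 for Stard4. Sc5d, not called against LPS, was called here, with 68.3 and 81.9 CPM with 6-shogaol against 52.7 and 60.6 CPM with 6-gingerol and a log2 fold change of 0.41 ± 0.12 (SE, with adjusted p = 0.0252). Sc5d and Pmvk lost their calls without replicate 1 of 30 µM 6-gingerol and without replicate 2 of 30 µM 6-shogaol, and Lss, at 0.65, was 0.24 and not called in limma on the authors' deposited table. The 7 members not called had values of -0.05 for Mvd, 0.01 for Srebf2, 0.02 for Mvk, 0.05 for Scap, 0.14 for Fdps, 0.32 for Tm7sf2 and 0.34 for Ebp. The 95% interval of the difference was -0.32 to 0.22 for Mvd and -0.26 to 0.28 for Srebf2.

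At 10 µM no member was called between the compounds, where 0.638% of all genes tested were called in either direction, 0.0787% higher and 0.559% lower with 6-shogaol. Without adjustment 6 of the 29 members had p under 0.05, against 1857 of the 12705 genes tested. Scd2 had 1620 and 1756 CPM with 6-shogaol against 1290 and 1186 CPM with 6-gingerol, a log2 fold change of 0.45 ± 0.12 (SE, with adjusted p = 0.132). Insig1 had 153 and 145 CPM with 6-shogaol against 114 and 114 CPM with 6-gingerol, a log2 fold change of 0.39 ± 0.10 (SE, with adjusted p = 0.122). For both the groups did not overlap, and the 95% interval was 0.19 to 0.71 for Scd2 and 0.17 to 0.60 for Insig1. DESeq2 called both, but the share of all genes it called is not given here, so its calls do not show a difference. Srebf1 had 68.2 and 71.7 CPM with 6-shogaol against 57.3 and 54.0 CPM with 6-gingerol, a log2 fold change of 0.33. Fads1 had 182 and 196 CPM with 6-shogaol against 165 and 144 CPM with 6-gingerol, a log2 fold change of 0.29. These 2 also did not overlap. At the other end, Ebp had a log2 fold change of -0.27, with a 95% interval of -0.55 to 0.01, and over all members the intervals lay within -0.55 to 0.71. The median was 0.05 in the sterol arm and 0.24 in the fatty acid arm.

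The dose step of 6-shogaol, 30 over 10 µM and both with LPS, raised 21 members and lowered none, whereas 9.85% of all genes tested were called higher and 9.54% lower. The sterol arm had 12 of 18 higher, the fatty acid arm 6 of 6 and the regulators 3 of 5, with medians of 0.46, 0.51 and 0.38. Acat2 had 80.3 and 77.9 CPM at 30 µM against 37.5 and 35.6 CPM at 10 µM, a log2 fold change of 1.11 ± 0.13 (SE, with adjusted p = 3.29e-05). Insig1 had 266 and 288 CPM at 30 µM against 153 and 145 CPM at 10 µM, a log2 fold change of 0.90 ± 0.10 (SE, with adjusted p = 3.09e-05). Elovl6 had 16.4 and 17.5 CPM at 30 µM against 9.79 and 8.66 CPM at 10 µM, a log2 fold change of 0.88 ± 0.14 (SE, with adjusted p = 0.000428). None of these 3 overlapped between doses, again without a count over all genes. Idi1 and Fdft1 followed in the sterol arm, with log2 fold changes of 0.86 and 0.82. Scd2, already highest of the arm at 10 µM relative to LPS, had 2380 and 2269 CPM at 30 µM against 1620 and 1756 CPM at 10 µM, a log2 fold change of 0.46 ± 0.12 (SE, with adjusted p = 0.0153). A refit with 1 of the 4 libraries left out leaves a group of 1, and the share of all genes called in such refits is not given here. In them the log2 fold change of Scd2 ran from 0.40 to 0.52. Scd2 lost its call whichever 1 of these 4 libraries was left out, and Idi1 without replicate 2 at 30 µM, whereas Acat2, Insig1, Elovl6 and Fdft1 kept theirs. The same dose step of 6-gingerol gave no call among the members, with 0.0% of all genes called higher and 0.00787% lower. The values farthest from 0 were -0.29 for Msmo1, -0.27 for Sc5d, -0.25 for Hsd17b7 and -0.23 for Ebp. An unadjusted p under 0.05 was found for 2 of the 29 members, against 434 of the 12705 genes tested.

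The difference between the 2 dose steps was itself tested, and 13 members had a larger step with 6-shogaol, and none a smaller one, against 8.17% of all genes tested called in either direction, 4.27% with a larger step and 3.9% with a smaller one. These were 9 of 18 sterol genes, 2 of 6 fatty acid genes and 2 of 5 regulators. Acat2 and Idi1 differed by 1.01 ± 0.18 and 1.01 ± 0.24 (SE, with adjusted p = 0.00364 and 0.0217). Elovl6, in the fatty acid arm, differed by 0.93 ± 0.20 (SE, with adjusted p = 0.0115), and Insig1, a regulator, by 0.85 ± 0.14 (SE, with adjusted p = 0.00252). The median difference was 0.58 in the sterol arm and 0.45 in the fatty acid arm. This is the reverse of their order for 30 µM 6-shogaol relative to LPS. The 6-shogaol step alone had medians of 0.46 in the sterol arm and 0.51 in the fatty acid arm. The 6-gingerol step, where no member was called, had -0.14 and 0.04. The count fell in refits with a single library left out. Each leaves a group of 1 library, and the share of all genes called in them is not given here. In alternatives where their calls were lost, the difference ran from 0.78 to 1.04 for Idi1 and from 0.30 to 0.54 for Acly. Acat2, Fdft1 and Insig1 were called in every alternative run, Hsd17b7 in all but the authors' deposited table, and the other 9 lost their call without 3 or more of the 8 libraries, left out in turn.

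**Figure D4:**
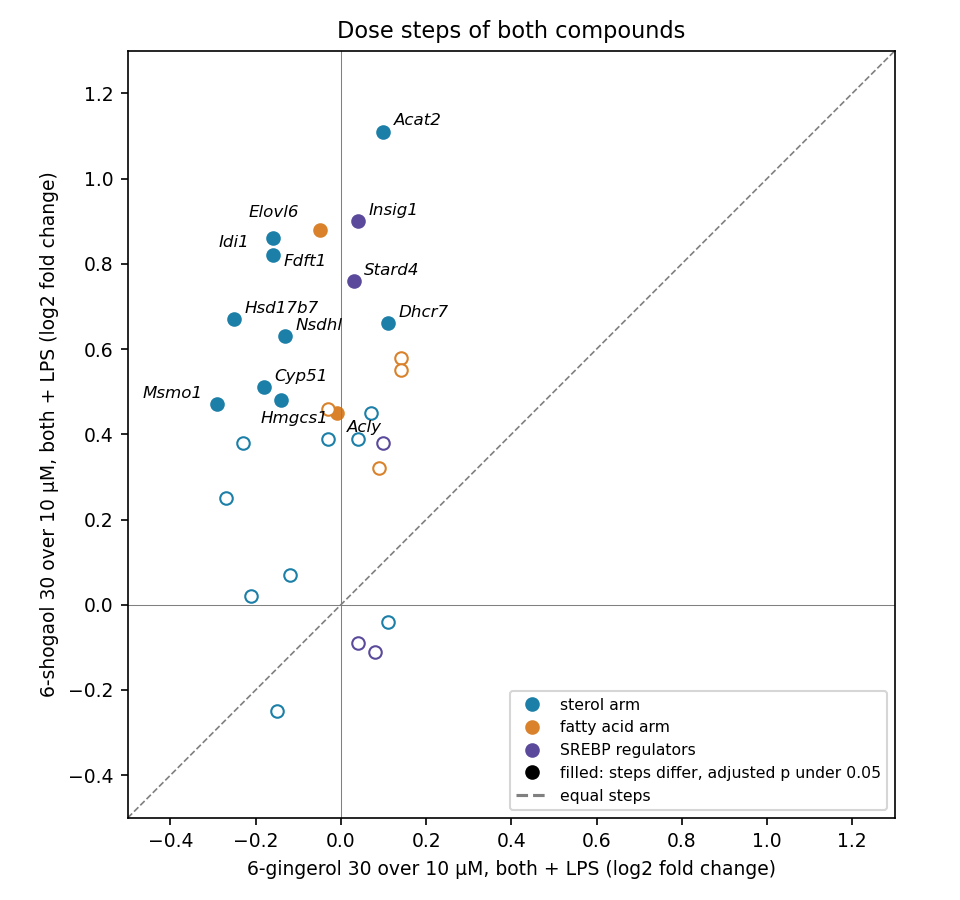
Dose step (log2 fold change of 30 over 10 µM, both with LPS) of 6-shogaol (vertical axis) against that of 6-gingerol (horizontal axis) for the 29 tested members; filled, named points are the 13 whose steps differed at an adjusted p under 0.05. The filled points lie between 0.45 and 1.11 on the 6-shogaol axis and between -0.29 and 0.11 on the 6-gingerol axis, above the line of equal steps.

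LPS alone, against untreated cells, called 4 members, 2 higher and 2 lower. That is 6.90% of the members in each direction, near the 7.66% of all genes tested called higher and not far from the 4.16% called lower. Insig1 had 139 and 117 CPM with LPS, against 61.2 and 56.1 CPM in untreated cells, a rise of 1.13 ± 0.10 (SE, with adjusted p = 1.79e-06) or 2.19-fold. Mvd had 80.7 and 73.7 CPM with LPS, against 45.8 and 52.2 CPM in untreated cells, a rise of 0.65 ± 0.13 (SE, with adjusted p = 0.00283). Mvd lies wholly opposite Gm20388, an annotated gene on the other strand, and the part of shared reads in its values was not tested. Its counts were whole numbers in all 12 libraries. The genes that fell were both of the fatty acid arm. Elovl6 had 8.41 and 7.81 CPM with LPS, against 12.4 and 12.3 CPM in untreated cells, a log2 fold change of -0.61 ± 0.14 (SE, with adjusted p = 0.00809). Fasn had 67.9 and 69.7 CPM with LPS, against 86.2 and 108 CPM in untreated cells, a log2 fold change of -0.50 ± 0.12 (SE, with adjusted p = 0.0092). None of these 4 genes overlapped between groups, which is a description without the share of all genes beside it.

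The LPS calls changed in some refits with a single library left out. Such refits leave a group of 1 library, and the share of all genes called in them is not given here. Fasn lost its call without either LPS library, without replicate 2 of the untreated group and in a fit of these 2 groups alone. Its log2 fold change there ran from -0.52 to -0.30. Elovl6 lost its call without replicate 2 of the LPS group and in the authors' deposited table, where it ran from -0.63 to -0.56. The median log2 fold change was 0.08 in the sterol arm, with 13 of 18 above 0, and -0.24 in the fatty acid arm, with 5 of 6 below 0. Over all genes tested it was -0.03, with 5753 above 0 and 6950 below. Scd2 had 1162 and 1180 CPM with LPS, against 1350 and 1639 CPM in untreated cells, without overlap, and a log2 fold change of -0.35 ± 0.12 (SE, with adjusted p = 0.0762). Fdps had 274 and 242 CPM with LPS, against 199 and 191 CPM in untreated cells, also without overlap, and a log2 fold change of 0.41 ± 0.14 (SE, with adjusted p = 0.0815). Scap had 30.3 and 29.7 CPM with LPS, against 34.95 and 43.0 CPM in untreated cells, and a log2 fold change of -0.38 ± 0.13 (SE, with adjusted p = 0.0818).

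Relative to untreated cells, 30 µM 6-shogaol with LPS raised 22 members and lowered none, against 13.3% of all genes tested called higher and 12.1% lower. The sterol arm had 14 of 18 higher with a median of 0.60, and the fatty acid arm 5 of 6 with a median of 0.57, so the medians of the arms lay close together on this scale. Insig1 had 266 and 288 CPM with 30 µM 6-shogaol and LPS, against 61.2 and 56.1 CPM in untreated cells, a rise of 2.24 ± 0.11 (SE, with adjusted p = 2.22e-09) or 4.73-fold. Acat2 had 80.3 and 77.9 CPM with 30 µM 6-shogaol and LPS, against 29.6 and 28.9 CPM in untreated cells, a rise of 1.43 ± 0.13 (SE, with adjusted p = 1.61e-06). In both genes the groups lay well apart. Elovl6 had 16.4 and 17.5 CPM with 30 µM 6-shogaol and LPS, against 12.4 and 12.3 CPM in untreated cells, a rise of 0.46 ± 0.13 (SE, with adjusted p = 0.0195). Fasn had 123 and 105 CPM with 30 µM 6-shogaol and LPS, against 86.2 and 108 CPM in untreated cells, and the groups overlapped; its log2 fold change was 0.22 ± 0.12 (SE, with adjusted p = 0.175). Mvd, Fdps and Tm7sf2, not called relative to LPS, were called here with log2 fold changes of 0.60, 0.41 and 0.56, and Hmgcs1, called relative to LPS, was not called relative to untreated cells, at 0.28 (adjusted p = 0.0534). Fdps lost its call whichever 1 of the 4 libraries compared was left out. Tm7sf2 lost it without either 6-shogaol library or replicate 1 of the untreated group, and Elovl6 without replicate 2 of 30 µM 6-shogaol or replicate 1 of the untreated group.

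**Figure D5:**
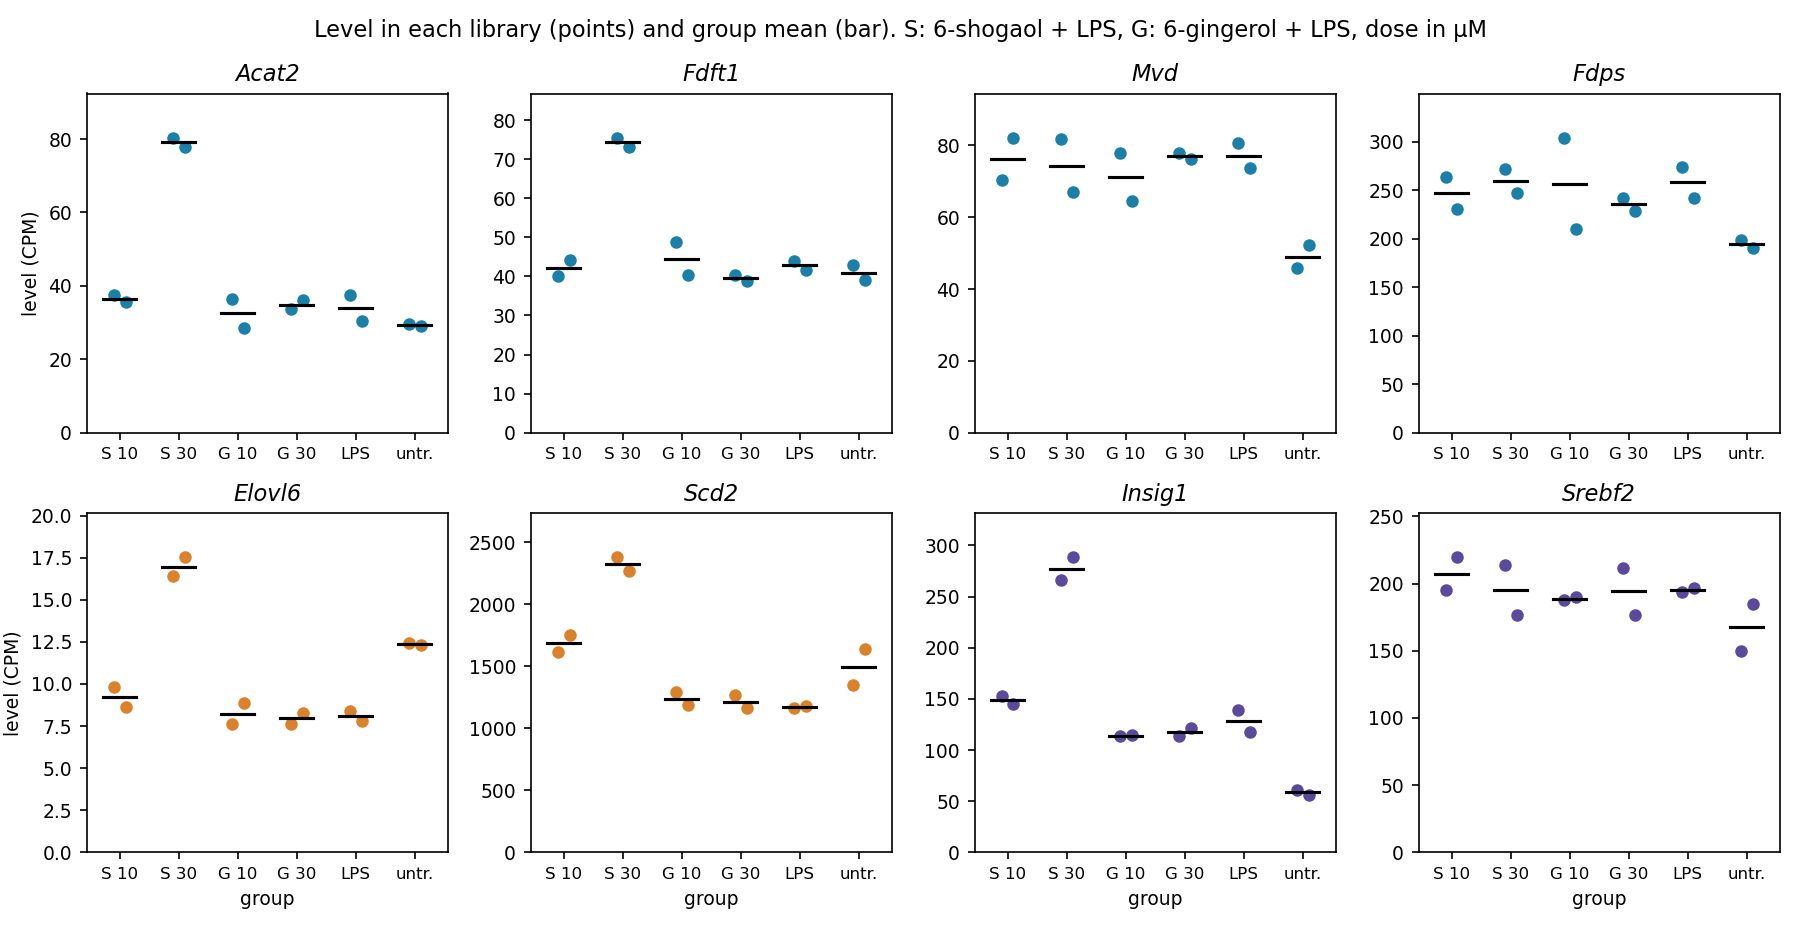
Level in CPM (vertical axes from 0) of 8 members in each library (points) with the mean of the group's 2 libraries (bar), for 6-shogaol (S) and 6-gingerol (G) at 10 or 30 µM with LPS, LPS alone and untreated cells (untr.). Acat2, Fdft1, Elovl6, Scd2 and Insig1 are highest in both libraries of 30 µM 6-shogaol, while Mvd and Fdps differ mainly between LPS-treated and untreated libraries and Srebf2 shows no separate group.

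Across the 6 groups the members showed several patterns. Insig1 averaged 149 ± 5.34, 277 ± 15.6, 114 ± 0.765, 118 ± 5.28, 128 ± 15.6 and 58.6 ± 3.65 CPM (SD, n = 2 each) with 10 and 30 µM 6-shogaol, 10 and 30 µM 6-gingerol, LPS alone and no treatment. It was thus above the untreated level in all LPS-treated groups and highest with 30 µM 6-shogaol, while 30 µM 6-gingerol overlapped both 10 µM 6-gingerol and LPS alone. Elovl6 averaged 9.23 ± 0.802, 17.0 ± 0.777, 8.24 ± 0.887, 7.96 ± 0.490, 8.11 ± 0.430 and 12.4 ± 0.0648 CPM in the same order, with untreated cells between 30 µM 6-shogaol and the rest. Scd2 averaged 1688 ± 96.4, 2324 ± 78.6, 1238 ± 74.0, 1214 ± 73.6, 1171 ± 12.9 and 1494 ± 205 CPM in that order, and the untreated group overlapped the 10 µM 6-shogaol group. Srebf2 averaged 208 ± 17.0, 195 ± 26.4, 189 ± 1.48, 194 ± 25.1, 195 ± 1.98 and 168 ± 25.0 CPM in that order, and neighbours in the order of the means overlapped, apart from 10 µM 6-gingerol and untreated cells. Over all comparisons, 25 of the 29 tested members were called at least once, and Mvk, Ebp, Srebf2 and Scap in none. The share of all genes tested that was called at least once was not computed, so this count has no background beside it. The comparison of 30 µM 6-shogaol with LPS alone called 25.4% of all genes tested in either direction.

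Promoter letters and responses can be set side by side. Of the 16 members with a window that rose with 30 µM 6-shogaol relative to LPS, 13 held a CCAAT match, and of the 7 tested members with a window that did not rise, 6 did. Acat2, with the largest rise, had no match in the window printed above, and Elovl6 and Acaca had none either. Mvk, with 5, was not called in any comparison.

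Other genes of the pathway were taken from lists of their known roles. Of 16 further genes that process, carry or degrade SREBPs, SCAP and INSIGs, 1 rose and 3 fell with 30 µM 6-shogaol relative to LPS, with a median of 0.00; these are 6.25% and 18.8% of the list, against 12.6% and 12.8% of all genes tested. Insig2, the second INSIG, had 84.3 and 89.4 CPM with 30 µM 6-shogaol and LPS, against 163 and 145 CPM with LPS, and fell, with a log2 fold change of -0.83 ± 0.13 (SE, with adjusted p = 0.000243), opposite in sign to Insig1. With LPS over untreated Insig2 rose, like Insig1, by 0.83 ± 0.13 (SE, with adjusted p = 0.000337), and with 10 µM 6-shogaol relative to LPS it was the 1 gene of the list called, at -0.59 ± 0.13 (SE, with adjusted p = 0.0498). Erlin1, a membrane protein of the endoplasmic reticulum that helps to degrade the rate-limiting reductase of the sterol arm, had 90.6 and 98.2 CPM with 30 µM 6-shogaol and LPS, against 163 and 157 CPM with LPS, and a log2 fold change of -0.76 ± 0.09 (SE, with adjusted p = 2.8e-05). Faf2, which takes part in the degradation of INSIG1, fell (-0.30), and Sec24d, a coat protein of the vesicles that carry SCAP with SREBPs, rose (0.46).

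Of 23 tested genes on branches, transport and storage around the sterol arm, 2 rose and none fell with 30 µM 6-shogaol relative to LPS, with a median of 0.16; 8.70% rose, below the 12.6% of all genes tested. Acat1, the mitochondrial counterpart of Acat2, had 123 and 132 CPM with 30 µM 6-shogaol and LPS, against 74.3 and 70.3 CPM with LPS, a rise of 0.82 ± 0.10 (SE, with adjusted p = 2.1e-05). Pcyt2, of phosphatidylethanolamine synthesis, rose by 0.62 ± 0.11 (SE, with adjusted p = 0.000781). With LPS over untreated 2 rose and 1 fell, or 8.70% and 4.35%, against 7.66% and 4.16% of all genes tested. Cyb5r3 (electron supply, 0.70) and Npc2 (lysosomal sterol transport, 0.53) rose and Acat1 (-0.40) fell.

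Of 27 tested genes that supply precursors to fatty acids or activate, elongate and esterify them, 8 rose and 2 fell with 30 µM 6-shogaol relative to LPS, with a median of 0.21; these are 29.6% and 7.41%, against 12.6% and 12.8% of all genes tested. Me1, the malic enzyme that supplies NADPH, had 84.1 and 87.5 CPM with 30 µM 6-shogaol and LPS, against 35.7 and 40.7 CPM with LPS, a rise of 1.17 ± 0.11 (SE, with adjusted p = 1.97e-06). Slc25a1, the mitochondrial citrate carrier that feeds Acly, rose by 0.73 ± 0.13, and Acss2, which makes acetyl-CoA from acetate, by 0.59 ± 0.13 (SE, with adjusted p = 0.000629 and 0.00484). Lpin1, a phosphatidate phosphatase, rose by 0.82 and Lpcat3, which puts polyunsaturated acyl chains into phospholipids, by 0.58. Cpt1a, which serves the entry of fatty acids into mitochondria for oxidation and not their synthesis, rose by 0.75. The falls were in Dgat2, which makes triglyceride, with 97.2 and 81.1 CPM with 30 µM 6-shogaol and LPS, against 210.5 and 215 CPM with LPS and a log2 fold change of -1.26 ± 0.12 (SE, with adjusted p = 3.64e-06), and in Acsl1, an acyl-CoA synthetase, at -0.63. LPS over untreated raised 9 of these 27 genes and lowered 2, or 33.3% and 7.41%, against 7.66% and 4.16% of all genes tested. Acsl1 (1.38) and Dgat2 (0.98) rose there, and Me1 rose both with LPS over untreated (1.09) and with 30 µM 6-shogaol over LPS.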

How the data were processed

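Per the file headers, each deposited per-library file is an RSEM gene table; expected counts (7.03% not whole) were used for tests and the deposited TPM for levels between genes. The submitters' processing notes name STAR 2.7.11b, DESeq2 1.44.0 with R 4.4.2, RSEM 1.3.3, FastQC 0.12.1, Trimmomatic 0.39 and the build GRCm38, without saying what each did. A deposited table of a normalized signal per gene, whose method is not given in the sources used here, served only as an alternative. Symbols came from GENCODE M21, promoter sequences from RefSeq.

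Expected counts were rounded, filtered with filterByExpr and TMM-scaled, and the 12 libraries were fitted together with 6 group means (edgeR 4.0.16 in R 4.3.3, robust quasi-likelihood F test, 2-sided, 6 residual degrees of freedom, common biological coefficient of variation 9.45%). The script was tested on simulated data. The median half-width of a member's 95% interval was 0.26 (log2), or 0.36 for the difference of dose steps. Comparisons share the LPS or the 30 µM 6-shogaol libraries. The rule for values per library took the members called in most comparisons and the 12 largest called changes of each (the 4 largest where fewer than 4 were called); further members, such as Mvk, Fdps, Srebf2 and Scap, were added for their place in the pathway after their values were seen. Not all values of the rule were repeated in later comparisons. The members and the other lists were chosen with earlier results of these data known. Alternatives were other scaling, no filter, DESeq2 1.42.0, limma 3.58.1 (voom, and log2(value + 1) of the deposited signal), a replicate block, fragment length, the compared groups alone, and each library left out.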

Additional observations from a re-analysis of the deposited data

Results flagged for a closer look

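The effect of raising the dose to 30 µM from 10 µM differed between the compounds, by the test of the difference itself, in 13 members, and in each of them the step was larger with 6-shogaol than with 6-gingerol. On the log2 scale the difference was 1.01 for Acat2, 1.01 for Idi1, 0.98 for Fdft1, 0.91 for Hsd17b7, 0.76 for Msmo1 and 0.76 for Nsdhl. It was 0.69 for Cyp51, 0.61 for Hmgcs1 and 0.56 for Dhcr7, which complete the sterol genes concerned. In the fatty acid arm it was 0.93 for Elovl6 and 0.46 for Acly, and among the regulators 0.85 for Insig1 and 0.73 for Stard4. The largest adjusted p among them was 0.0488, for Acly (edgeR).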

How the results depend on the processing

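The 103 called changes were recomputed 1468 times: 1322 kept direction and call, 146 kept direction but lost the call, 58 of them in the difference of dose steps and 37 between the doses of 6-shogaol, and none reversed. The count for LPS over untreated (4) became 7 with no count filter and ran from 2 to 7 with single libraries left out. That for 10 µM 6-shogaol over LPS (0) became 1 with library totals, with no count filter, with DESeq2 and without the untreated libraries (an alternative chosen after seeing the data), and 3 with the compared groups alone. That for 10 µM 6-shogaol over 6-gingerol (0) became 1 with library totals and 2 with no count filter, DESeq2 or no untreated libraries. The difference of dose steps (13) became 6 in the authors' deposited table and ran from 4 to 11 with single libraries left out; 30 over 10 µM 6-shogaol (21) ran from 12 to 17. The cause was not tested. In the refits with a library left out, the lone library of a group was assumed to vary like the other groups. The share of all genes called under the alternatives is not given here, so these counts have no background beside them. The counts for 30 µM 6-shogaol stayed at 17 to 22 over LPS, 20 to 22 over 6-gingerol and 17 to 23 over untreated cells, and those for 6-gingerol stayed at 0, under every alternative run. Library totals moved the median of all genes by 0.111 between the compounds at 10 µM and by -0.15 for the difference of dose steps. Equal replicate numbers were not taken to pair the libraries, since they are not said to mark a shared batch. Deviations from the group means correlated at -0.312 to 0.178 over 15 pairs of groups, with 5 over 0.1. Whether some groups shared handling is unknown. With the replicate block LPS over untreated gave 5 calls, Fdps in addition, and 30 µM 6-shogaol gave 21 over LPS and 22 over 6-gingerol. Scd1 and Fads2 were at or below the limit of detection at this depth, and 2 libraries a group limit all tests.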
